A study of Homo sapiens with 8 samples.

Results

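RNA that co-precipitated with METTL3 in PC3 cells was described from 1 deposited list of 1033 peaks out of 3649 in the lists of the 2 cell lines studied. PC3 is an androgen-independent human prostate cancer line established from a metastasis, and LNCaP, the other line, is androgen-sensitive. All 1033 peaks were taken, and a peak was given to a protein-coding gene where exactly 1 such gene held it whole on GRCh38. By this rule 998 peaks (96.6%) fell on 357 genes, 7 lay within 2 genes and 28 within none, of which 26 touched a protein-coding gene.

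The study holds 8 samples in 4 groups of 2: PC3 METTL3 IP, PC3 input, LNCaP METTL3 IP and LNCaP input. The cells were otherwise untreated as far as the labels say, and the serum content of the medium differed between the lines. The IP used an antibody against METTL3 and the input was lysate kept aside before it. A rabbit IgG control is named in the labels and was not analysed here. Because the list gives no separate values for the 2 IP or the 2 input libraries, replicate error and depth are both unknown, and the identity of the cells could not be checked against marker levels. The fold and the p-value of each peak are the authors' own. The header does not name the denominator of the fold, and reading it as IP over input rests on the design. The span of a peak runs from its start to its end and includes any intron between.

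METTL3 carries out the methyl transfer that makes N6-methyladenosine (m6A) on nascent RNA, with METTL14 as the partner that helps hold the RNA. The mark is laid down within short DRACH sequences, in which D is A, G or U, R is A or G, and H is A, C or U, and it is known to be rich in long internal exons and around stop codons. RIP recovers RNA bound by METTL3 or held in its complexes, and it does not read the mark itself.

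Few whole PC3 peaks could be read as sequence, because only windows at gene starts were at hand. A 51-base peak inside DYNC1H1, at chr14:102039155-102039205 on the plus strand, lay in the window of the uncharacterised gene LOC107984661 and is printed because DYNC1H1 carried the second largest number of peaks. Its fold was 9.23 and its p-value 7.86e-06. It held 2 matches to DRACH on its own strand, shown in capitals (RefSeq, GRCh38.p14, DNA letters).
DYNC1H1 peak: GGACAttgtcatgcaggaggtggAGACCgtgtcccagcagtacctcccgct
The first match starts at base 1 and the other at base 24. Among 27195 promoter stretches of the same length, read on the gene strand, 55.4% held at least 1 match and 19.3% at least 2, so a match by itself is common. The other 2 peaks that could be read whole, each of 76 bases, are not printed: that of MAP4K4 (fold 3.69) held 1 match and that of SPTBN1 (fold 9.58), which is not the leading SPTBN1 peak by p-value, held none. Among promoter stretches of that length 69.8% held at least 1 match.

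Several PC3 peaks spanned microRNA hairpins. There were 5 hairpins on the strand of the peak, in 4 peaks, and mature products of 4 of them are shown with the seed, bases 2 to 8, in capitals, because they show which small RNAs these host transcripts carry.
hsa-let-7f-5p: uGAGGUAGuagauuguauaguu
hsa-miR-98-5p: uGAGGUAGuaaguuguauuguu
hsa-miR-98-3p: cUAUACAAcuuacuacuuuccc
hsa-miR-6819-5p: uUGGGGUGgagggccaaggagc
hsa-miR-6819-3p: aAGCCUCUguccccaccccag
hsa-miR-6782-5p: uAGGGGUGggggaauucaggggugu
The first 2 share the seed GAGGUAG of the let-7 family, and the hairpins of both, MIRLET7F2 and MIR98, lay in a single peak of HUWE1 at chrX:53554888-53559480 on the minus strand. This peak had a fold of 8.47 (p-value 1.00e-17). The LNCaP list had a peak of nearly the same extent there, chrX:53554913-53559530, with a fold of 6.62 (p-value 3.64e-05). That p-value is above the largest one in the PC3 list, 1.59e-05. MIR6819 lay in a MYH9 peak with a fold of 10.1 and MIR6782 in a UBTF peak with a fold of 5.67. Because spans include introns, the list does not say whether reads covered the hairpins themselves. A further hairpin, MIR199A1, lay within a DNM2 peak on the opposite strand.

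The 357 genes are 1.79% of the 19974 protein-coding genes of the annotation. Peaks were uneven among them: 146 genes carried 1 peak and the median was 2. The 57 genes with at least 5 peaks held 441 of the 998 assigned peaks (44.2%), and the 12 genes with most peaks held 158 (15.8%). Some neighbouring peaks lie within 25 bp of each other on the same strand, and joining them left 912 of the 1033. The number of peaks on a gene is therefore not a number of separate sites. The median fold over all 1033 peaks was 5.74 (exact binomial interval of the median over peaks 5.48 to 5.93), with the middle 50% between 4.21 and 8.004. The interval is that of the median with peaks taken as independent, although many share a gene. It does not cover variation between libraries.

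AHNAK carried the most peaks. It encodes a giant scaffold protein at the plasma membrane and had 20 peaks, all on the minus strand between chr11:62516829 and chr11:62536548 in a gene that runs from 62433544 to 62546806. Their folds ranged from 3.21 to 7.34 with a median of 5.54, below the median of the whole list, and they covered 4626 bp in pieces of 51 to 876 bp. AHNAK thus led by number of peaks and not by height. The related AHNAK2 had 3 peaks with folds between 5.17 and 10.5.

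DYNC1H1, the heavy chain of cytoplasmic dynein, followed with 18 peaks and folds between 4.04 and 10.5. FLNA, which cross-links actin filaments, had 16 peaks between 4.74 and 7.92. PLEC encodes plectin, a cytolinker between intermediate filaments and actin, and had 15 peaks between 4.83 and 21.1. These 3 genes carried 13, 15 and 16 peaks in LNCaP. The folds of FLNA were the most even of the 3.

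Several genes had 12 peaks. SPTAN1, the alpha-II spectrin of the membrane skeleton, had folds between 6.70 and 15.5, all above the list median. MYO9B, an unconventional myosin that also acts on small GTPases, ranged from 7.37 to 31.0, with 1 peak, at 12.3, on the strand opposite to the gene. MUC5B, a gel-forming mucin, ranged from 2.58 to 23.8.

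The peaks of MUC5B fell into 2 kinds by strand. Its 11 plus-strand peaks had folds between 9.09 and 23.8, and 1 minus-strand peak of 7333 bp had the lowest fold, 2.58. That peak began 9 bases after the start of MUC5B-AS1, an antisense gene by name that is listed on the minus strand. It is counted with MUC5B by position alone, and which transcript it came from was not tested. MUC5AC, the neighbouring gel-forming mucin, had 8 peaks with folds between 11.8 and 26.5 and the median of 16.3 lay close to the 16.8 of MUC5B. Both genes hold repeated coding sequence and are related to each other, so reads could be split or shared between copies, and how such reads were placed is not given in the sources used here.

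HUWE1, a very large ubiquitin ligase, and CREBBP, a histone acetyltransferase and transcriptional coactivator, had 11 peaks each. The folds of HUWE1 ran from 7.18 to 12.3 and those of CREBBP from 9.72 to 20.1. Every CREBBP peak lay above the median of the list. SRRM2, a scaffold protein of nuclear speckles, had 9 peaks between 5.38 and 13.6. SIPA1L1, MACF1 and POM121C also had 9, and ranked behind SRRM2 only by the smallest p-value. POM121C has a close paralog, POM121, so its count is uncertain in the same way as that of the mucins.

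**Figure D1:**
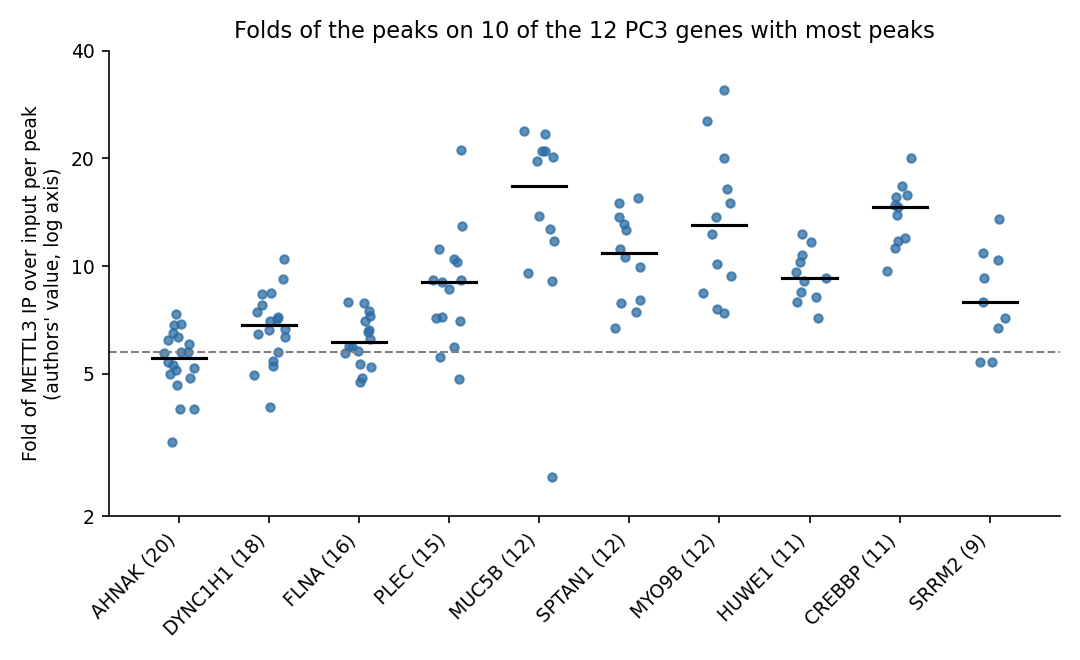
Each point is 1 PC3 peak of 10 of the 12 genes with most peaks (number of peaks in parentheses), with the authors' fold of METTL3 IP over input on a log axis. Black bars are the median of each gene and the dashed line is the median of the list, 5.74. AHNAK has the most peaks and a median of 5.54, while MUC5B and CREBBP sit at 16.8 and 14.7.

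Ranked by p-value, the leading peak lay on SPTBN1, the beta-II spectrin that pairs with SPTAN1. This peak had a fold of 16.3 (p-value 7.79e-133) and spanned 38657 bp, chr2:54621439-54660095. MYH9, a non-muscle myosin heavy chain, came next (fold 10.1, p-value 1.29e-94). After it came a peak over MPRIP, a protein that binds myosin phosphatase (fold 18.1, p-value 3.53e-82), on the strand opposite to the gene. PLEC (fold 10.5), the acetyltransferase KAT6B (9.68), the kinase MAP4K4 (6.43), AHNAK2 (10.5), MUC5B (21.0), the chromatin regulator ANKRD11 (8.46) and the matrix protein ABI3BP (13.2) completed the 10 genes. Of the leading peaks of these 10 genes, those of SPTBN1, KAT6B, AHNAK2, MUC5B and ABI3BP overlapped no LNCaP peak on the same strand. Over the whole PC3 list 459 of 1033 peaks (44.4%) overlapped one, so these 10 peaks are not set apart from the list in this.

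The largest folds were on other peaks. KMT2D, a histone H3 lysine 4 methyltransferase, had a peak of 126 bp with a fold of 139.4, and EP300, the acetyltransferase paralog of CREBBP, one of 51 bp with a fold of 120.5. Both rested on weak p-values for this list, 2.99e-06 and 5.65e-06, ranks 957 and 999 of 1033. KMT2D had a neighbouring peak of 51 bp at 120.2, and its other 3 peaks lay between 6.54 and 9.72. The other EP300 peaks had folds of 7.61 and 9.95. After these came MYO9B (31.0), MUC5AC (26.5), the transcription factor ZFHX3 (24.0), MUC5B (23.8), PLEC (21.1), SEPTIN9 (20.4), CREBBP (20.1) and the remodelling subunit ARID1A (19.2). Each of these 10 genes is given by its largest peak, and further peaks of KMT2D, MYO9B, MUC5AC and MUC5B also exceeded 19.2. Among the 10 peaks given, only those of MUC5AC, MUC5B and CREBBP were within the first 193 by p-value. None of the 10 overlapped a LNCaP peak on the same strand, where 44.4% of all PC3 peaks did. Among assigned peaks that share was 29.7% at 51 to 76 bp and 55.0% at 1002 to 9987 bp. The 10 peaks spanned 51 to 9853 bp, and whether their lack of overlap goes with fold or with width was not tested.

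The genes were next grouped into 27 lists of 727 annotated genes in all, of which 109 carried a PC3 peak. The other 248 PC3 genes belonged to no list. Shares below stand beside the 1.79% of all protein-coding genes. The lists were chosen with earlier results of these data known, so high shares follow in part from that choice. The shares and their intervals are descriptions and not tests of a gene class. The background is wider than the set of genes that PC3 expresses, which is not known from the list, and in these bulk lysates little RNA and little recovery with METTL3 cannot be told apart for a gene without a peak.

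Scaffold and cytoskeleton genes carried many of the peaks. Among plakins and AHNAK scaffolds, 5 of 9 genes carried 53 peaks: AHNAK, PLEC, MACF1 with 9 peaks, the desmosomal plakin DSP with 6, and AHNAK2. Their median fold was 5.92, near that of the list. Among spectrins, ankyrins and protein 4.1 genes, 4 of 14 carried 21 peaks, with a higher median of 9.93. SPTAN1 had 12 of them and SPTBN1 6.

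Among filamins, talins, actinins and other focal adhesion genes, 8 of 22 carried a peak (36.4%, 95% Wilson interval 19.7 to 57.0). FLNA held 16 of the 41 peaks of this group. TLN1, which links integrins to actin, had 4 peaks between 5.32 and 9.08, and the actinins ACTN1 and ACTN4 had 2 each. Of 26 integrins 1 carried a peak, ITGA3, with 2 peaks of fold 3.968 and 4.001. This share, 3.85% (Wilson interval 0.682 to 18.9), is not set apart from the share of all protein-coding genes.

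Among myosins 8 of 38 carried a peak (21.1%). MYO9B had 12, MYH9 8 and MYO5A, a vesicle motor, 6. MYO10, which builds filopodia, had 2 peaks of high fold, 13.1 and 13.4. Among dyneins and kinesins 6 of 38 carried a peak, and DYNC1H1 held 18 of the 30 peaks. KIF1C, a kinesin that carries vesicles, had 5 between 5.21 and 6.28, and the dynactin subunit DCTN1 had 3.

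Chromatin genes formed the other large block. Among ATP-dependent remodellers 13 of 24 carried a peak (54.2%, Wilson interval 35.1 to 72.1). SMARCA4, an ATPase of the BAF complex, and CHD4, the ATPase of the NuRD complex, had 8 peaks each, with folds between 6.89 and 11.4 and between 4.104 and 12.5. These include 1 SMARCA4 peak and 2 CHD4 peaks on the strand opposite to the gene, among them those at 11.4 and 4.104. ARID1A had 6, up to 19.2, and BPTF of the NURF complex had 4, between 3.89 and 4.81. Among histone acetyltransferases and methyltransferases 11 of 28 carried a peak. CREBBP led with 11, KMT2D had 5, and KAT6B and KMT2E had 4 each. CREBBP held the highest lower bound of these genes, since its lowest peak, 9.72, exceeded the lowest peak of each other gene of that list.

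Among transcriptional coactivators and corepressors 8 of 21 carried a peak. NCOR1, a nuclear receptor corepressor, and the coactivator NCOA6 had 4 each, with folds between 5.87 and 11.5 and between 6.08 and 12.8. Of 30 genes mutated in prostate cancer, 4 carried a peak (13.3%, Wilson interval 5.31 to 29.7). They included KMT2D, NCOR1 and ZFHX3, a homeobox tumour suppressor with 4 peaks between 11.7 and 24.0. All 4 also carried a LNCaP peak, as did 227 of all 357 PC3 genes (63.6%), and a count of 4 is too small to set apart from that share.

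RNA and protein synthesis genes were covered unevenly. Among splicing and RNA processing genes 7 of 38 carried a peak. SRRM2 had 9, the U2 component SF3B2 5 with low folds of 2.37 to 3.18, and POLR2A, the largest subunit of RNA polymerase II, 4 with high folds of 9.03 to 11.5. Among translation factors 5 of 22 carried a peak. The RNA-binding protein LARP1 and the initiation factor EIF3B had 7 each, and EIF4G1, the scaffold of the cap-binding complex, had 5. Of 78 cytosolic ribosomal protein genes, none carried a peak in either cell line. The PC3 Wilson interval, 0 to 4.69%, includes the share of all protein-coding genes, so this list is not set apart from it. Their median span is 4905 bp, against 24170.5 bp over all protein-coding genes. Of 22 writers, readers and erasers of m6A, only EIF3A carried peaks, 2 with folds of 2.56 and 2.73, a share of 4.55% that is near the background.

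Secreted and matrix genes were represented by mucins and collagens. Of 15 mucins 3 carried 21 peaks with a median fold of 14.5, the highest median of the 27 lists. Of 42 collagen and laminin genes and their partners, 8 carried a peak, but with a low median fold of 4.11. The laminin chain LAMC1 had 5 peaks between 3.74 and 6.61, and fibronectin, FN1, had 4 between 5.36 and 7.68.

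Of 36 ubiquitin ligases and deubiquitinases 6 carried a peak, and HUWE1 held 11 of their 19 peaks. Of 18 calcium channel and IP3 receptor genes 3 did, with ITPR3, an IP3 receptor, at 5 peaks and TRPM2, a cation channel, at 4 peaks between 9.62 and 19.0. Of 41 DNA repair and replication genes 5 did, led by TOP2A with 7 peaks between 3.64 and 6.05 and PARP1 with 5 between 3.20 and 3.71. Of 17 glycolytic enzymes 3 did, with HK1 at 6 peaks.

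The remaining lists held 0 or 1 gene with a PC3 peak, counts too small to set apart from the share of all protein-coding genes, and they are given as values only. Of 18 genes of the androgen receptor and its targets, none carried a PC3 peak, and 4 carried a LNCaP peak. Of 20 markers of PC3 and of androgen-independent cells, 1 did, EZR, with a fold of 2.83. Of 34 growth factor receptor, PI3K and mTOR genes, 1 did, MTOR, with folds of 6.43 and 10.4. Of 21 plexins and semaphorins and their receptors, 1 did, NRP1, with 4 peaks. No member of the lipoprotein receptor family (17 genes), of Notch, Wnt, Hippo and cadherins (26 genes) or of the nuclear genes of the mitochondrial respiratory chain (29 genes) carried a PC3 peak, where 4, 6 and 2 carried a LNCaP peak.

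**Figure D2:**
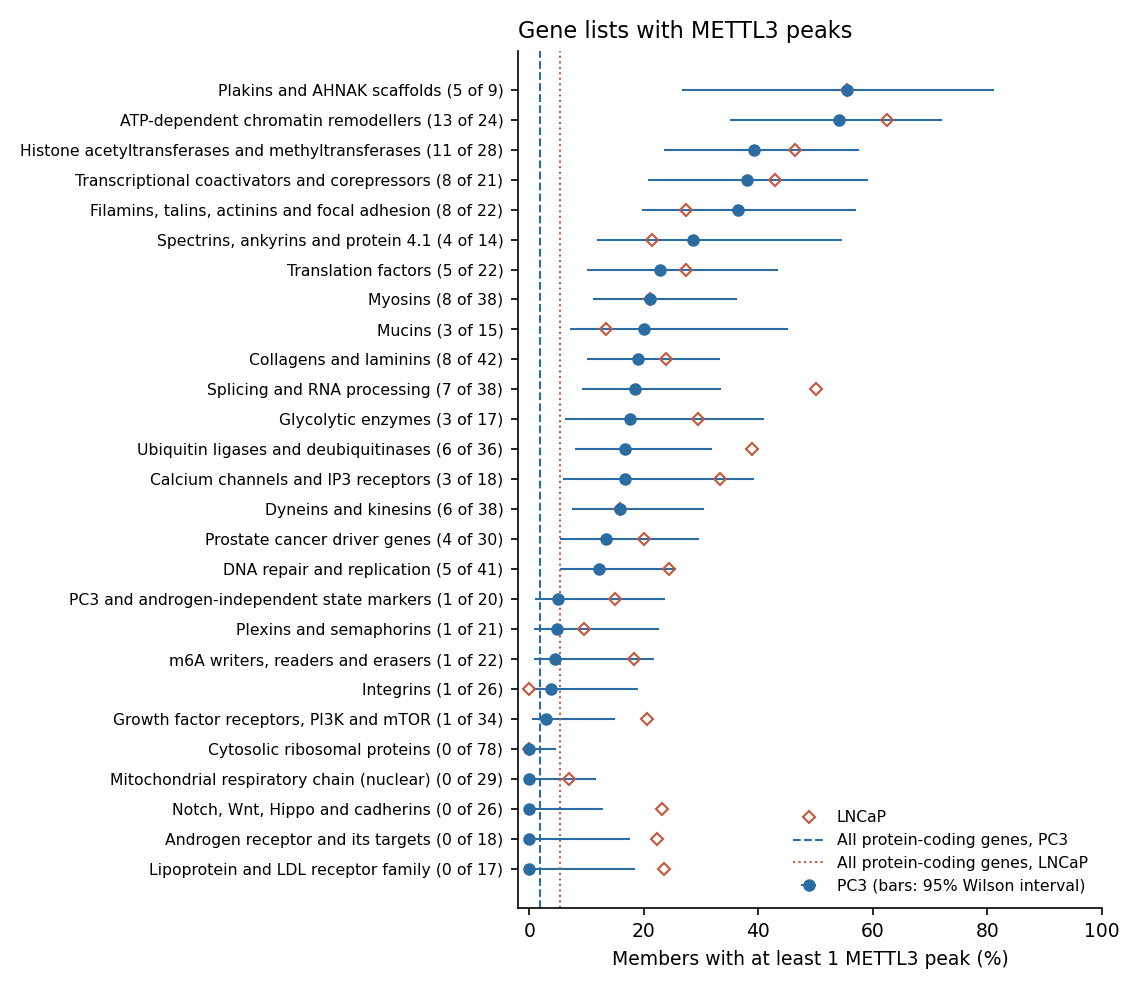
Share of the members of each gene list with at least 1 METTL3 peak, in PC3 (points with 95% Wilson intervals, counts in parentheses) and in LNCaP (open diamonds). The dashed and dotted lines are the shares over all protein-coding genes, 1.79% in PC3 and 5.41% in LNCaP. Plakins, remodellers and histone acetyltransferases and methyltransferases lie highest in PC3, and 5 lists are at 0.

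In LNCaP 1081 genes carried a peak, 5.41% of the protein-coding genes, but its list admitted p-values up to 0.0178, against 1.59e-05 in PC3. At or under the largest PC3 p-value, a limit chosen after the data were seen, 249 genes (1.25%) carried a LNCaP peak. Of the list differences above, several rested on that limit. The splicing list fell from 19 to 6 LNCaP genes, against 7 in PC3, ubiquitin ligases from 14 to 3, against 6, and androgen receptor and targets from 4 to 1, against 0. For remodellers the count fell from 15 to 5, against 13 in PC3. At the same limit the LNCaP count stayed above the PC3 count for calcium channels and IP3 receptors (5 against 3), lipoprotein receptors (2 against 0), plexins and semaphorins (2 against 1), and Notch, Wnt, Hippo and cadherins (1 against 0), as it did for androgen receptor and targets. These differences of 1 or 2 genes were not tested.

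Of the 357 PC3 genes 227 (63.6%) also carried a LNCaP peak, which is 21.0% of the LNCaP genes. The share was 82.5% (47 of 57) for genes with at least 5 PC3 peaks and 55.5% (81 of 146) for genes with 1. With the largest PC3 p-value applied to both lists it was 28.9%. By peaks, 459 of 1033 (44.4%) overlapped a LNCaP peak by at least 1 bp on the same strand, which involved 21.3% of the LNCaP peaks. Among the 998 assigned peaks, overlap was more frequent for wide ones. It was 29.7% for those of 51 to 76 bp and 36.4% for the next class, up to 985 bp. The 2 widest classes were alike, with 55.0% for 1002 to 9987 bp and 55.6% for 10230 to 151041 bp. Wider peaks have more room to overlap, and the part of width in these shares was not tested.

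The remaining 130 PC3 genes had no LNCaP peak. The 10 with most PC3 peaks were AHNAK (20), MUC5B (12), CREBBP (11), SIPA1L1 (9), SULF2 (8), SIPA1L3 (8), SPTBN1 (6), HNRNPUL1 (6), MYO5A (6) and ABI3BP (5). With same-strand peaks within 25 bp joined, the largest falls were to 3 each for SULF2, MYO5A and ABI3BP, and to 17 for AHNAK. MUC5B and CREBBP then had 10 each, SIPA1L1 9, SIPA1L3 7, and SPTBN1 and HNRNPUL1 5 each. SIPA1L1 and SIPA1L3, related regulators of the small GTPase Rap, differed in height: folds were 4.62 to 8.26 in SIPA1L1 and 11.3 to 15.7 in SIPA1L3, and these ranges do not overlap. SULF2, an extracellular heparan sulfate sulfatase, had folds of 4.403 to 6.67, and its peaks spanned up to 54604 bp each. The RNA-binding protein HNRNPUL1 had the narrowest range of the 10, 4.78 to 5.51. ABI3BP ranged from 8.27 to 13.2. Levels of these transcripts in LNCaP were not analysed here, and absence from that list does not show absence of binding.

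Genes with a PC3 peak were long. Their median span was 74422 bp, against 24170.5 bp over all protein-coding genes. Among the 1998 shortest genes 1 carried a peak (0.0501%), and among the 1998 longest 80 did (4.004%). Of the 6258 genes with a span of at least 50000 bp, 223 (3.56%) carried a peak. Several lists remained above that share when restricted to such genes: 9 of 19 remodellers, 8 of 18 histone acetyltransferases and methyltransferases, 8 of 26 myosins and 7 of 16 coactivators and corepressors. None of the 24 DNA repair and replication genes of that length carried a peak, nor did any of the 16 integrins. In lists of that size, counts of 0 are not set apart from a share of 3.56%. PC3 genes also had more annotated transcripts, with a median of 7 against 4. Among genes of at least 50000 bp the medians were 11 and 8.

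**Figure D3:**
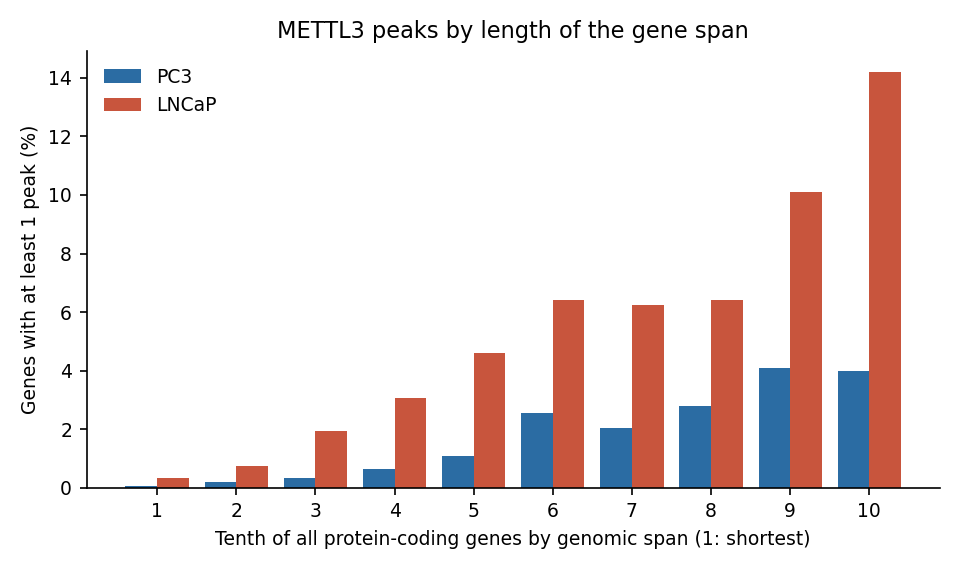
Share of protein-coding genes with at least 1 peak in 10 equal classes of all genes by genomic span, from the shortest (1) to the longest (10). In PC3 the share goes from 0.0501% to 4.004%, with the highest value, 4.11%, in class 9. In LNCaP it goes from 0.350% to 14.2%.

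Peaks lay towards the end of genes. With midpoints read along the strand of each peak, 562 of 998 assigned peaks (56.3%, Wilson interval 53.2 to 59.4) fell in the last of 3 equal parts of the gene span, 288 in the middle and 148 in the first. With 10 equal parts, the count went from 34 in the first to 200 in the last, without a reversal between neighbours. In LNCaP it reached 394 in part 9 and was 287 in the last, 11.5% of its peaks against 20.0% in PC3. Positions are along the gene span, introns included, so they do not separate coding exons from untranslated regions.

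**Figure D4:**
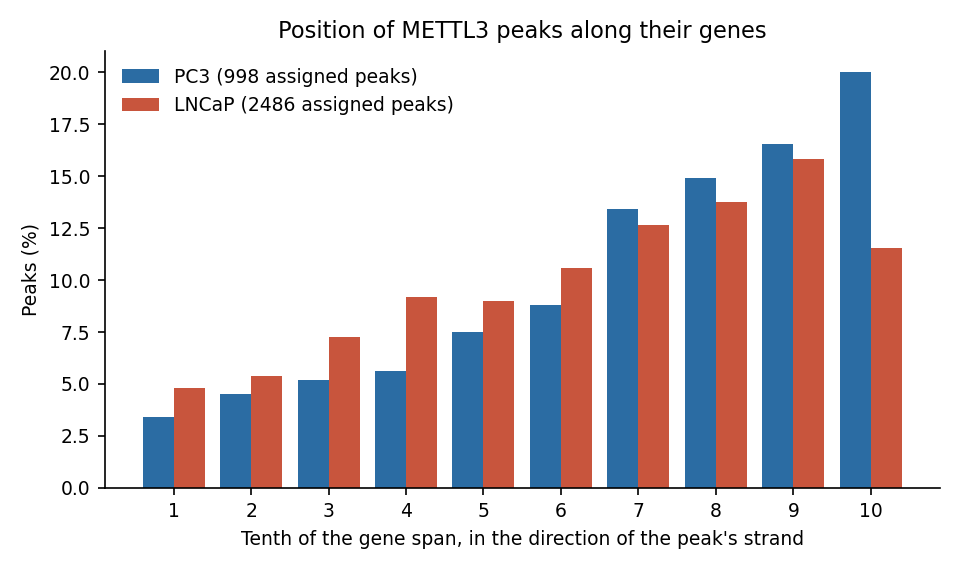
Share of assigned peaks in each of 10 equal parts of the gene span, read along the strand of the peak, for 998 PC3 and 2486 LNCaP peaks. The PC3 share goes from 3.41% in the first to 20.0% in the last.

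Genes differed in where their peaks lay. The AHNAK peaks all had midpoints between 9.18% and 26.3% of the gene span and KMT2D peaks between 20.9% and 55.4%, so neither gene had one in the last of the 3 parts. Those of ZFHX3 lay between 98.6% and 98.9% and those of ANKRD11 between 89.6% and 93.1%, which is a cluster near the end in each. Those of MUC5AC lay between 62.6% and 77.4%. MYO5A had its 6 peaks between 71.6% and 79.0%.

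**Figure D5:**
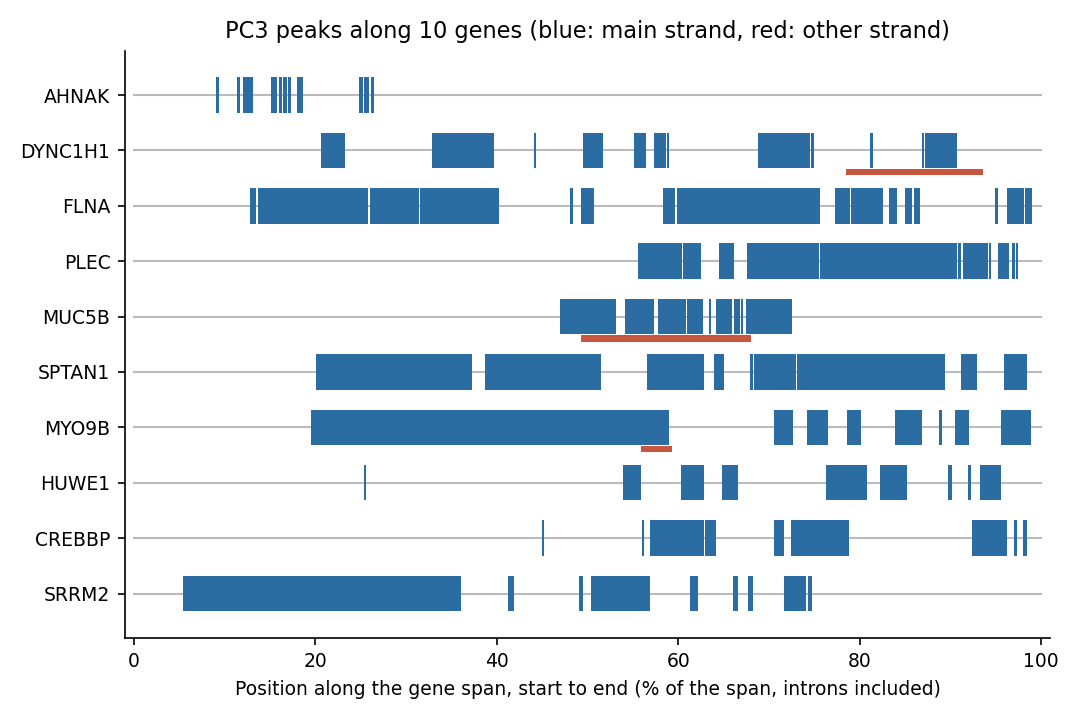
PC3 peaks along 10 of the 12 genes with most peaks, each gene drawn from 0 to 100% of its span, introns included. Blue boxes lie on the strand of the gene, or, where no gene strand was given, on the strand with most of its peaks, and red bars lie on the other strand. AHNAK peaks sit early in the span, and those of PLEC and CREBBP in its later part.

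Strand could be checked for 792 assigned peaks whose gene has a strand in the promoter table, and 768 of them lay on the strand of their gene. The other 24 (3.03%, Wilson interval 2.04 to 4.47), on 21 genes, lay on the opposite strand. The counts and folds per gene above include them, among others 1 peak each for DYNC1H1, MYO9B, SULF2, KIF1C and KAT6B. In LNCaP 52 of 2046 did (2.54%). The median fold was 5.47 on the opposite and 5.74 on the gene strand, but opposite-strand peaks were wider, with a median span of 5313.5 bp against 923 bp.

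The strongest opposite-strand peak was that of MPRIP, at chr17:17169020-17185548 (fold 18.1), where the largest fold on the gene's own strand was 10.2. A peak over OS9, a lectin of endoplasmic reticulum quality control, had a fold of 9.01 against 2.74 on the gene's strand. Over SPTBN1 a minus-strand peak of 375 bp had a fold of 14.3, with the antisense gene SPTBN1-AS2 listed there. Over TRPM2 the fold was 16.8, with TRPM2-AS listed there. Of the 24 peaks, 14 had a gene listed on that strand or an antisense gene by name, and 10, among them MPRIP and OS9, had none in the tables used. A PC3 peak on the gene's own strand overlapped 21 of the 24. Library preparation kept strand, per the labels' protocols, and carry-over between strands was not tested. For 206 assigned peaks, MUC5B, MUC5AC and PLEC included, no gene strand was given.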

How the data were processed

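METTL3 RIP-seq of PC3 and LNCaP cells was analysed from 1 deposited peak list per cell line. Per the submitters' processing notes, fastp, STAR 2.5.3a, bedtools and deepTools were used with hg38; the peak caller, filters and handling of replicates are not given in the sources used here. Per the file headers, each peak has a linear fold, a p-value and FDR, and a score. The deposited FDR is a Benjamini-Hochberg adjustment over the listed peaks alone, and the score its negative log2.

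Peaks were assigned by position, irrespective of strand, with the RefSeq gene table (GRCh38.p14). Gene strand came from the RefSeq promoter table, which gave it for 15812 of 19974 protein-coding genes. Shares have 95% Wilson intervals and medians exact binomial intervals. These cover counting error only. No test was made, since the lists hold no values per library.

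The members and gene lists were chosen with earlier results of these data known. Genes named are the 12 with most peaks, the 10 with the smallest p-value, the 10 with the largest fold where the FDR was 0.05 or less, up to 5 per list by number of peaks, and the 10 with most peaks in PC3 and none in LNCaP. Every PC3 peak met that FDR limit, since the largest PC3 p-value was 1.59e-05, so the limit removed none. The genes of the strand paragraphs, MYO10, the genes given with positions, POM121C and the microRNA hosts were chosen after their values were seen. Some members that these rules name are not reported here. Scripts were run in Python 3.11.15 with pandas 2.3.3 and SciPy 1.17.1 and tested on simulated data. Alternatives covered the p-value and fold admitted, joining of peaks within 25 bp, gene assignment, strand, peak and gene length, and the overlap that counts as shared. The comparison of IP with input per library was planned and could not be run on these lists.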

Additional observations from a re-analysis of the deposited data

How the results depend on the processing

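No paired analysis was possible because the lists do not separate the libraries, which also kept the planned omission of each replicate from being run. Of 22 alternatives 12 left the value within 1.5 times the main count or within its interval. With a p-value of at most 1e-10 the list fell to 382 peaks on 183 genes and its median fold was 6.39. The median over genes of each gene's median fold was 5.11. In genes of at least 50000 bp, 62.8% of peaks lay in the last part of the gene. The overlap with LNCaP peaks was 21.6% when 50% of both peaks had to be shared, 15.7% with the largest PC3 p-value applied to both lists, which leaves 389 LNCaP peaks, and 59.7% for PC3 peaks with a p-value of at most 1e-10. The share of PC3 genes with a LNCaP peak was 28.9% with the largest PC3 p-value applied to both lists and 69.2% for genes with at least 2 PC3 peaks. The fall under that limit follows from the fewer LNCaP peaks left; for the other values the cause was not tested.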

Other observations

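Beside the microRNA hairpins, PC3 peaks held 13 small nucleolar or Cajal body RNA genes within the spans of 12 host genes, counted on either strand. SNORD66 lay in a peak of EIF4G1 with a fold of 8.95, SNORD37 in one of EEF2 with a fold of 3.86, and SCARNA11 in one of CHD4 with a fold of 6.80. SNORD82 and SNORA75 lay in peaks of NCL, the nucleolar protein nucleolin, with folds of 3.05 and 2.41. Whether reads covered these RNAs is not known from the spans.

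Promoters of PC3 genes were rich in G and C. The median content of the window from 250 bases before to 50 after the start was 68.3% over the 292 PC3 genes with a sequence and 62.7% over 15812 protein-coding genes. For genes of at least 50000 bp the medians were 69.0% and 65.0%. The median number of CG pairs in the window was 30 against 22. Only 22 peaks (2.13%) touched such a window of a protein-coding gene on their own strand.

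By chromosome, the share of genes with a PC3 peak was lowest on chromosome 13, with 2 of 338 (0.592%, Wilson interval 0.162 to 2.13), and highest on chromosome 21, with 10 of 239 (4.18%, 2.29 to 7.53). By symbol, 6 of 25 MYO genes (24%) and 4 of 11 CHD genes (36.4%) carried a PC3 peak, against 1.79% of all protein-coding genes. For ZNF genes the count was 6 of 517 (1.16%) and for SLC genes 3 of 386 (0.777%). In LNCaP 5 MYO, 5 CHD, 19 ZNF and 17 SLC genes carried a peak, so peaks on MYO and CHD genes were not particular to PC3. Differences from the share of all protein-coding genes were not tested.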
